A study of Mus musculus with 6 samples.

Results

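The genes described here are 35 markers of myeloid and mast cells: receptors of mononuclear phagocytes, Fc receptors and their signalling adaptors, granule proteins of neutrophils and mast cells, subunits of the phagocyte oxidase, and 3 transcription factors of these lineages. The list was given by name, and each of the 35 genes had exactly 1 probe set carrying its symbol alone, out of 19938 genes measured on the arrays. They were measured in mouse BCR-ABL1-transformed B cell precursors, a model of Philadelphia chromosome-positive acute lymphoblastic leukaemia. Dusp6 wild-type cells (Dusp6 WT, 3 arrays) were compared with cells of Dusp6 knockout mice (Dusp6 KO, 3 arrays), and both groups shared the C57Bl/6-SV129j strain background and the BCR-ABL1 oncogene. Dusp6 encodes a phosphatase that switches off ERK. The labels give neither the deleted part of Dusp6, the age of the mice, the vector nor the number of animals or cultures behind the arrays, so the p-values measure the spread between these arrays, which may be technical.

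B cell precursors and myeloid cells descend from shared progenitors. Commitment to the B lineage, guided by Pax5 and Ebf1, normally goes with silencing of myeloid genes such as Csf1r, whereas the ETS factor Spi1 (PU.1) is active in both lineages and drives many myeloid promoters in cooperation with C/EBP factors. Leukaemic B cell precursors can carry some myeloid transcripts, and several genes named here, among them Cybb and the Fc receptor genes, are also known from B cells.

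The labelled cell type was checked against 19 measured B cell precursor genes. Their mean signals over the 6 arrays ran from log2 9.17 to 14.51, so none was near the lower end of the array range. Signals of different probe sets are not comparable RNA levels, and 21 of the 35 myeloid and mast cell genes also lay above the lower quartile of gene signal (log2 7.45), so these signals do not by themselves tell B cell precursors from other cells. Of the 19 genes, 3 rose and 6 fell in the knockout, so 47.4% were called, against 19.8% of all genes. Igll1, Cd79a, Cd79b and Ebf1 were among the 10 that did not pass the test. So were Pax5 (−0.19, limma adjusted p = 0.066) and Tcf3 (−0.15, limma adjusted p = 0.056). All knockout arrays lay below all wild-type arrays in 10 of the 19 genes, beside 18.4% of all genes. They lay above in 4 of the 19, beside 17.3% of all genes. Dusp6 fell by 3.36 on the log2 scale, from 12.36, 12.46 and 12.49 in wild type to 9.04, 9.06 and 9.15 in knockout (limma adjusted p = 4.3e-10). Pearson correlations between arrays were 0.996 to 0.998 within a genotype and 0.987 to 0.989 between genotypes.

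Single members of the myeloid and mast cell list moved, and most did not pass the test. The low-affinity Fc receptor gene Fcgr3, the lysozyme gene Lyz2, the Fc receptor gene Fcgr4 and the scavenger receptor gene Msr1 rose in the knockout cells, and the oxidase subunit gene Ncf4 fell. That is 4 of 35 higher and 1 of 35 lower at a limma adjusted p under 0.05, against 9.66% of all genes called higher and 10.2% called lower. In either direction 14.3% of members were called, below the 19.8% of all genes. The members were chosen with earlier results of these data known, so these shares describe the list and test nothing. The shares were also not matched for signal, and the mean signal of 14 of the 35 members lay below the lower quartile of genes. Fcgr3 was the 1 member past 2-fold (1.29% of all genes were called and past 2-fold). The median log2 difference of the 35 members was 0.026, against 0.0018 over all genes. It was 0.016 without wild-type replicate 1, 0.045 without wild-type replicate 2, 0.017 without wild-type replicate 3, 0.043 without knockout replicate 3, 0.015 with arrays centred on their median and 0.010 with quantile normalization repeated. In bulk RNA, a change in the number of cells of a type and a change in RNA per cell cannot be told apart.

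**Figure D1:**
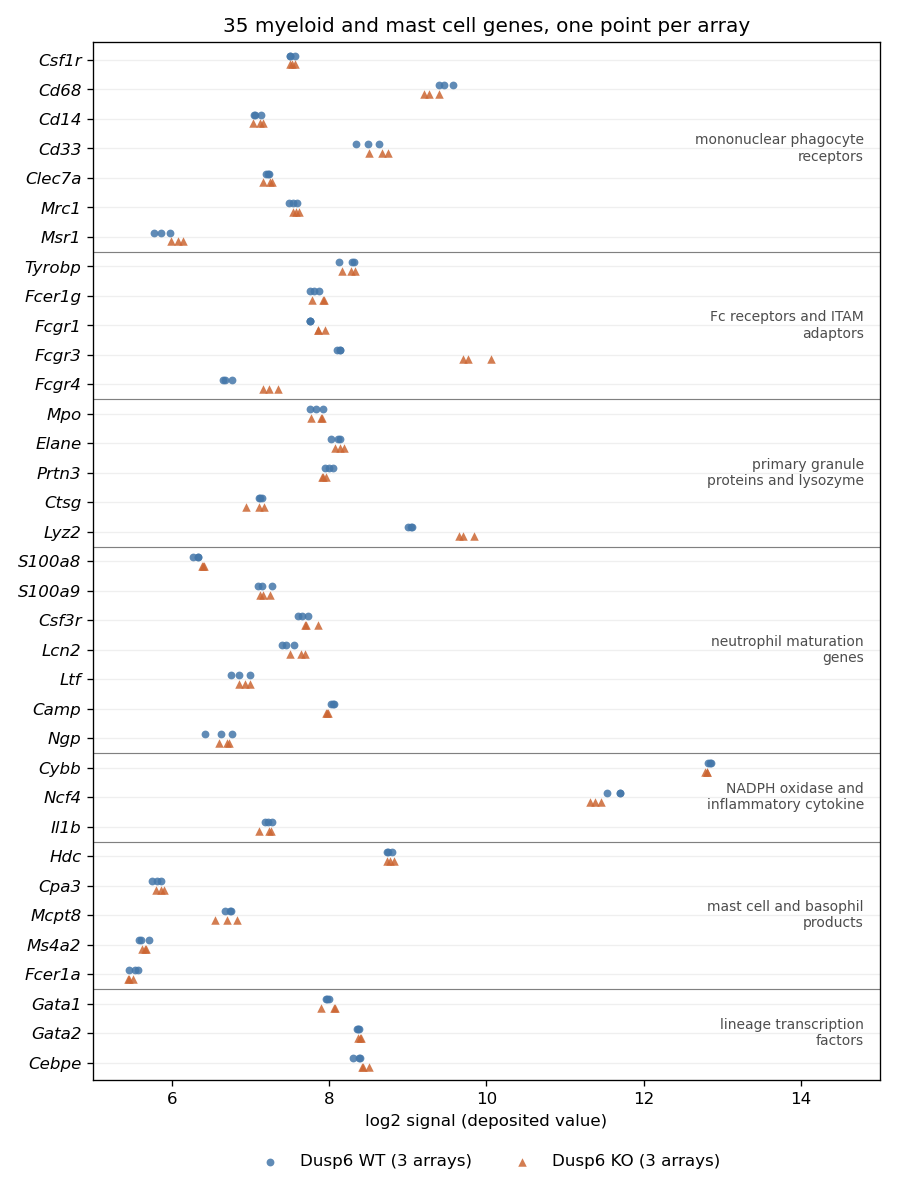
Log2 signal of the 35 genes on each array, with circles for the 3 Dusp6 WT arrays and triangles for the 3 Dusp6 KO arrays, grouped by role. The triangles lie clearly to the right of the circles for Fcgr3, Lyz2 and Fcgr4, and the symbols lie on or beside each other for most other genes; positions of different genes on the axis are not comparable RNA levels.

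The Fc receptor genes held the largest change of the list. Fcgr3, which encodes an activating receptor for IgG immune complexes, read 8.10, 8.13 and 8.14 on the wild-type arrays and 9.70, 10.06 and 9.77 on the knockout arrays (log2 signal). All 3 knockout arrays lay more than 1 log2 unit above all wild-type arrays. The rise was 1.72 ± 0.084 on the log2 scale (SE), or 3.29-fold (limma adjusted p = 6.4e-07). Fcgr4, another activating IgG receptor of myeloid cells, read 6.66, 6.67 and 6.76 in wild type and 7.35, 7.24 and 7.16 in knockout. Its groups did not overlap, and it rose by 0.55 ± 0.058 (SE; limma adjusted p = 0.00011), although its mean signal lay below the lower quartile of genes. The high-affinity IgG receptor gene Fcgr1 read 7.76, 7.75 and 7.75 against 7.95, 7.86 and 7.86. Its groups did not overlap either, but the difference of 0.13 ± 0.043 (SE) did not pass over all genes (limma adjusted p = 0.059).

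The adaptors that carry the signals of these receptors did not pass the test. Fcer1g encodes the common Fc receptor gamma chain, which activating Fc receptors need to reach the cell surface and to signal. It read 7.87, 7.80 and 7.76 in wild type and 7.78, 7.94 and 7.92 in knockout, with overlapping groups and a difference of 0.072 (95% interval −0.051 to 0.19; limma adjusted p = 0.44). Tyrobp, the signalling adaptor of many myeloid receptors, differed by 0.010 (95% interval −0.13 to 0.15; limma adjusted p = 0.94). The interval of Fcer1g ends far below the rise of Fcgr3.

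Fcgr2b, Fcgr4 and Fcgr3 lie close together on chromosome 1, with Fcer1g further along. Fcgr2b, the inhibitory IgG receptor and the main Fc receptor of B cells, is no member of the list but a close copy of Fcgr3 in its extracellular part. It read 11.00, 10.99 and 10.89 in wild type and 12.07, 12.03 and 12.00 in knockout, and rose by 1.07 ± 0.046 (SE; limma adjusted p = 2.9e-07). The deposited values give 1 number per probe set, so how far RNA of one copy adds to the signal of the other was not tested, and the separate sizes of the changes of Fcgr3 and Fcgr2b are uncertain. Among the 16 measured genes from 6 before Fcgr2b to 6 after Fcgr3, 7 were called higher and 3 lower, beside 9.66% and 10.2% of all genes. Cfap126, next after Fcgr3, rose by 0.83 and Fcrla, before Fcgr2b, rose by 0.39 (adjusted p = 0.058 with every probe set in the adjustment), while Olfml2b fell by 0.71, Dusp12 by 0.31 and Sdhc by 0.23. Dusp12 lost its call without wild-type replicate 2 or 3 or knockout replicate 2 (adjusted p of 0.055 to 0.069), its dimmest probe set differed by −0.11 (0.11), and Sdhc without wild-type replicate 1 or 3 or knockout replicate 2 or 3 (0.067 to 0.11). Fcrlb differed by 0.0050 and Nr1i3 by 0.044, and neither passed. This stretch was looked at after the values of Fcgr3 were known.

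**Figure D2:**
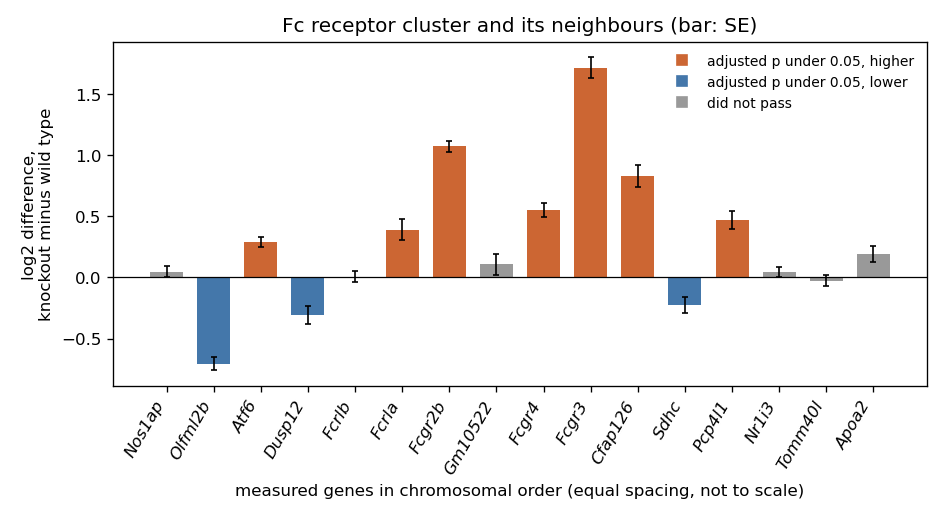
Log2 difference, knockout minus wild type, of 16 measured genes in their order along chromosome 1, evenly spaced; bars on the columns are limma's standard errors and colours mark the call. Fcgr3 (1.72) and Fcgr2b (1.07) are the tallest columns, with Olfml2b (−0.71) the lowest.

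The sequences upstream of the start sites are shown for the 3 members with the largest changes and for the neighbouring copies of 2 of them, Fcgr2b and Lyz1, because these genes rose together and Spi1 and C/EBP factors are known to act at myeloid promoters. They are the 250 bases before an annotated start, 5′ to 3′ in the direction of the gene, from RefSeq on GRCm38.p6. Fcgr3 had 2 such windows, of which 1 is printed, and each other gene shown had 1. Capitals mark matches on either strand to GAGGAA or AGGAAG, which are forms of the ETS core that Spi1 binds and which overlap where both are read as GAGGAAG, and to TTGCNNAA, a form of the C/EBP site.
Fcgr3 (chr1:171059404-171059653, minus strand): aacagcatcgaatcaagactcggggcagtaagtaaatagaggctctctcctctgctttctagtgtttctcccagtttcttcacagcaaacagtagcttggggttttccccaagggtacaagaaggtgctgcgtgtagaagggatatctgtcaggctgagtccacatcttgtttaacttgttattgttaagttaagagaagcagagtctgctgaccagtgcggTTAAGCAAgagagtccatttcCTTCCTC
Fcgr4 (chr1:171018676-171018925, plus strand): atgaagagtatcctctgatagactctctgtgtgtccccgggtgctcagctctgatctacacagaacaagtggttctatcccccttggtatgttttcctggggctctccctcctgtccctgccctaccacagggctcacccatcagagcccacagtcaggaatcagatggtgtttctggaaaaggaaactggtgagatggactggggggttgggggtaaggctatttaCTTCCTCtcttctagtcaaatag
Fcgr2b (chr1:170976072-170976321, minus strand): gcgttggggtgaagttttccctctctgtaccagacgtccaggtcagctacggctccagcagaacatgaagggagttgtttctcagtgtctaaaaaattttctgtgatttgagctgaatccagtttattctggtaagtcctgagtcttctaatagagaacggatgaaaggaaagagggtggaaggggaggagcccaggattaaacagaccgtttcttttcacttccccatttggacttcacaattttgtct
Lyz2 (chr10:117282273-117282522, minus strand): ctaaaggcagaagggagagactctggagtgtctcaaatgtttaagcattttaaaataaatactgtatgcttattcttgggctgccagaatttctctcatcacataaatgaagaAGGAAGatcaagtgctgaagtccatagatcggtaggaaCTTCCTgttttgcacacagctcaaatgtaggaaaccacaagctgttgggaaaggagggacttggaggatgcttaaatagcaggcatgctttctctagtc
Lyz1 (chr10:117292869-117293118, minus strand): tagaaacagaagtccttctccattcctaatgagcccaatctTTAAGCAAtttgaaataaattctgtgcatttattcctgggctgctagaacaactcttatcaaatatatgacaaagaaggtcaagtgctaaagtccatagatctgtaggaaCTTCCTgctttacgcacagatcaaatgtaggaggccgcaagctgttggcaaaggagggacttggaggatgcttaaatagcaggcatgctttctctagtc
The printed windows of Fcgr3 and Fcgr4 each held the overlapping pair of ETS forms, within CTTCCTC on the printed strand. That of Fcgr3 held 1 match to TTGCNNAA, whereas the Fcgr2b window held no match to any of the 3 motifs. Lyz2 held 2 matches to AGGAAG and Lyz1 held 1, beside a match to TTGCNNAA. Over the 29 members with a window, 18 (62.1%) held GAGGAA, against 25.9% of the 27025 genes with a window. A gene was counted if any of its windows held the motif. AGGAAG was held by 18 of 29 members (62.1%) against 32.3% of genes, and TTGCNNAA by 7 of 29 (24.1%) against 10.8%. The 3 called members with a window, Fcgr3, Fcgr4 and Lyz2, were among the 18 that held AGGAAG, and the rest of the 18 were not called. Lyz2 held 0 matches to GAGGAA, and Fcgr4 and Lyz2 held 0 to TTGCNNAA. The motifs were chosen after values were seen, and a link between motif and change was not tested. A match is a description of letters, not of binding.

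Of the primary granule proteins and lysozyme, 1 of 5 rose and 0 fell, beside 9.66% and 10.2% of all genes. Lyz2, which encodes the lysozyme of macrophages and granulocytes, read 9.061, 9.002 and 9.042 in wild type and 9.65, 9.70 and 9.85 in knockout. The groups did not overlap, and the rise was 0.70 ± 0.056 (SE), or 1.62-fold (limma adjusted p = 1.9e-05). Its neighbour Lyz1, the lysozyme of Paneth cells, is a near copy, and the windows printed above agree at 79.4% of 252 aligned positions. Lyz1 read 8.40, 8.20 and 8.23 against 8.54, 8.58 and 8.66 and rose by 0.31 ± 0.060 (SE; limma adjusted p = 0.0049). How far the probes of one lysozyme read RNA of the other was not tested. The granule enzymes that define early neutrophil precursors did not pass: myeloperoxidase (Mpo) differed by 0.017, neutrophil elastase (Elane) by 0.040, proteinase 3 (Prtn3) by −0.074 and cathepsin G (Ctsg) by −0.048, with adjusted p of 0.32 to 0.89 (limma). Mpo read 7.83, 7.93 and 7.76 in wild type and 7.77, 7.91 and 7.89 in knockout, so its groups overlapped fully.

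Of the mononuclear phagocyte receptors, 1 of 7 rose and 0 fell, beside 9.66% and 10.2% of all genes. Msr1, the class A scavenger receptor of macrophages, read 5.78, 5.97 and 5.86 in wild type and 6.14, 5.99 and 6.08 in knockout. The groups did not overlap, but the highest wild-type and the lowest knockout array were close, and the rise was 0.20 ± 0.060 (SE; limma adjusted p = 0.043). This signal lies near the bottom of the array range, and the call was lost without wild-type replicate 1 (adjusted p = 0.15), wild-type replicate 3 (0.10), knockout replicate 1 (0.12) or knockout replicate 3 (0.11). It was also lost with the replicate block (0.091), with limma's trend and robust options (0.067) and with every probe set in the adjustment (0.11). The lysosomal glycoprotein gene Cd68 read 9.39, 9.57 and 9.46 against 9.40, 9.21 and 9.26, a difference of −0.18 ± 0.064 (SE) that did not pass (limma adjusted p = 0.080, but 0.043 with arrays centred on their median and 0.027 without knockout replicate 1). Csf1r, the receptor of the macrophage growth factor, differed by 0.0091 (95% interval −0.089 to 0.11), with 7.50, 7.57 and 7.50 in wild type and 7.51, 7.53 and 7.57 in knockout. The endotoxin co-receptor gene Cd14 differed by 0.026, the beta-glucan receptor gene Clec7a by 0.011, the mannose receptor gene Mrc1 by 0.038 and the sialic acid receptor gene Cd33 by 0.15, and their groups overlapped (limma adjusted p from 0.26 to 0.91).

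Of the neutrophil maturation genes, 0 of 7 passed in limma, beside 19.8% of all genes, and 1, Lcn2, had an unadjusted p under 0.05, beside 30.6%. Their differences ran from −0.069 to 0.14. The alarmin genes S100a8 and S100a9 differed by 0.083 and −0.0020. Csf3r, the receptor of the granulocyte growth factor, differed by 0.087. The siderophore-binding protein gene Lcn2 read 7.56, 7.40 and 7.46 in wild type and 7.64, 7.69 and 7.50 in knockout, a difference of 0.14 with overlapping groups (limma adjusted p = 0.16). The secondary granule genes Ltf, Camp and Ngp differed by 0.054, −0.069 and 0.078. In S100a8 the knockout arrays, and in Camp the wild-type arrays, lay above all arrays of the other genotype, by small margins that did not pass (limma adjusted p = 0.22 and 0.29).

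Of the 3 oxidase and inflammatory cytokine genes, 0 rose and 1 fell, beside 9.66% and 10.2% of all genes. Cybb, the catalytic subunit of the phagocyte NADPH oxidase, read 12.86, 12.82 and 12.84 in wild type and 12.77, 12.80 and 12.80 in knockout. The groups did not overlap, but the difference of −0.044 did not pass (95% interval −0.13 to 0.045; limma adjusted p = 0.52). Ncf4, a cytosolic regulator of the same complex, read 11.70, 11.70 and 11.54 against 11.46, 11.32 and 11.38. It fell by 0.26 on the log2 scale (SE 0.058; limma adjusted p = 0.012), with no overlap. Without wild-type replicate 1 or knockout replicate 2 the adjusted p of Ncf4 was 0.050 and 0.051, and it was no longer called. The inflammatory cytokine gene Il1b differed by −0.025 (limma adjusted p = 0.80).

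No mast cell or basophil gene passed: of 5, 0 rose and 0 fell in limma, beside 9.66% and 10.2% of all genes. An unadjusted p under 0.05 was found for 0 of the 5, beside 30.6% of all genes. The histamine-forming enzyme gene Hdc differed by 0.014, the mast cell carboxypeptidase gene Cpa3 by 0.049, the basophil protease gene Mcpt8 by −0.025, and the IgE receptor chains Ms4a2 and Fcer1a by 0.017 and −0.048. All 5 had 95% intervals within 0.25 of 0, but the mean signal of 4 of the 5 lay below the lower quartile of genes. A change in RNA near background would show as a smaller difference, so narrow intervals do not show unchanged RNA. Fcer1a, the alpha chain that binds IgE, read 5.53, 5.58 and 5.46 in wild type and 5.51, 5.46 and 5.45 in knockout. The transcription factor genes Gata1 and Gata2, regulators of erythroid and mast cells, differed by 0.036 and 0.016, and the granulocyte factor gene Cebpe by 0.098 (limma adjusted p = 0.73, 0.84 and 0.19).

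**Figure D3:**
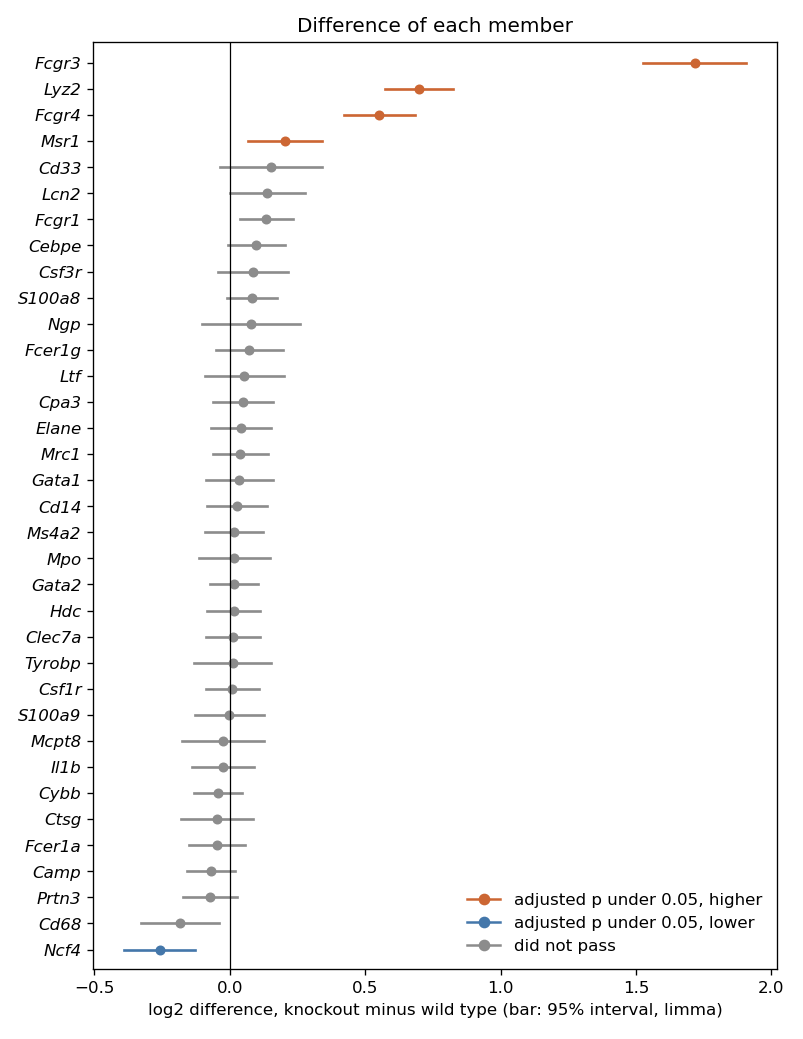
Log2 difference (knockout minus wild type) of each of the 35 genes with its unadjusted 95% interval from limma; colours mark genes at an adjusted p under 0.05. Fcgr3 (1.72), Lyz2 (0.70) and Fcgr4 (0.55) stand to the right, and 26 of the 35 genes have intervals within 0.25 of 0.

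Taken as a whole list, 25 of 35 members had a difference above 0, against 50.8% of all genes; with arrays centred on their median the count was 22, and without wild-type replicate 3 it was 20. The groups did not overlap in 10 members (28.6%), below the 35.7% of all genes. Averaged over the 35 members, the log2 signal was 7.72 to 7.76 on the wild-type arrays and 7.82 to 7.87 on the knockout arrays. The ranges of the genotypes did not overlap, with the called members included. Averaged over the 30 members not called, the log2 signal was 7.63 to 7.67 in wild type and 7.65 to 7.70 in knockout. Those ranges overlapped, but the 30 were picked for not passing the test on these same arrays, which favours overlap. The median deviation of all 35 members from their wild-type means was −0.014 to 0.020 on the wild-type arrays. It was 0.0046 to 0.062 on the knockout arrays, so the genotypes overlapped by this measure. A 95% interval within 0.25 of 0 on the log2 scale, which is 1.19-fold, was found for 26 of the 35 members and for 13784 of the 19938 genes. The other members were the 5 called ones and Cd68, Cd33, Lcn2 and Ngp. The mean signal of 14 of the 35 members lay below the lower quartile of genes, and 6 lay above the median; signals were not tested against background, and a change in RNA near background would show as a smaller difference.

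Other genes of the lineages were taken from lists of 104 symbols, 95 of them measured. Of these 95, 20 rose (21.1%, beside 9.66% of all genes) and 5 fell (5.26%, beside 10.2%), with a median difference of 0.024. The lists were chosen with earlier results of these data known, so these shares describe the lists and test nothing. Among 14 transcription factor genes, Irf8 (0.22) and Spi1 (0.16) rose and Id2 (−0.33) and Mitf (−0.19) fell. That is 14.3% each way, beside 9.66% and 10.2% of all genes. Spi1, the myeloid and B cell ETS factor, read 11.99, 11.95 and 11.89 in wild type and 12.09, 12.16 and 12.06 in knockout (limma adjusted p = 0.039). Spi1 was not called when any 1 of the 6 arrays was left out (adjusted p from 0.051 to 0.14), nor with arrays centred on their median (0.056) or with the replicate block (0.063). Irf8 was lost without wild-type replicate 1, wild-type replicate 2 or knockout replicate 3 (0.071, 0.051 and 0.069). Mitf, the mast cell and melanocyte factor, had several probe sets and an adjusted p of 0.68 by its dimmest one. It was also lost without wild-type replicate 2 or 3 and without knockout replicate 2 or 3 (0.13 to 0.14). The C/EBP genes Cebpa, Cebpb and Cebpd did not pass, with differences of −0.081, −0.032 and −0.11.

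Cytokine receptor chains of myeloid progenitors moved in both directions. Of 10, 4 rose (40%, beside 9.66% of all genes) and 2 fell (20%, beside 10.2%). Csf2ra, the ligand-binding chain for GM-CSF, read 10.50, 10.39 and 10.42 in wild type and 9.80, 9.86 and 9.89 in knockout and fell by 0.59 (SE 0.047; limma adjusted p = 1.8e-05). Its signalling partner Csf2rb read 12.72, 12.72 and 12.66 against 13.00, 13.04 and 13.02 and rose by 0.32, and the close copy Csf2rb2, which serves IL-3, rose by 0.67. How far the probes of one copy read RNA of the other was not tested. The alpha chain genes for IL-3 and IL-5, Il3ra (−0.27) and Il5ra (0.27), fell and rose, and Flt3, the receptor of early progenitors, rose by 0.62. Il5ra, a dim gene, was not called without wild-type replicate 2 (adjusted p = 0.054) or knockout replicate 2 (0.061).

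Of 34 further monocyte and macrophage genes, Fcgr2b among them, 8 rose (23.5%, beside 9.66% of all genes) and 1 fell (2.94%, beside 10.2%). Ly86, the partner of Cd180, rose by 4.31, the activating receptor gene Trem1 rose by 1.09, and the inhibitory receptor gene Sirpa fell by 1.53. Trem1 read 10.55, 10.47 and 10.39 in wild type and 11.50, 11.62 and 11.56 in knockout. Sirpa read 10.22, 10.13 and 10.04 against 8.63, 8.66 and 8.50. Besides Fcgr2b, the other risers were the galectin gene Lgals3 (0.82), the cytokine gene Tnf (0.48), the scavenger receptor gene Cd36 (0.41), the cathepsin gene Ctss (0.32) and the costimulatory ligand gene Cd86 (0.23). Cd86 was not called when any 1 array other than knockout replicate 2 was left out (adjusted p of 0.071 to 0.10). The 25 genes that did not pass included the integrin alpha chain Itgam (−0.11), the macrophage marker Adgre1 (−0.021) and the complement genes C1qa (−0.014), C1qb (−0.031) and C1qc (0.12). Of 17 further granulocyte genes, Itgb2 (0.78), Trem3 (0.66) and Anxa1 (0.21) rose (17.6%, beside 9.66% of all genes) and 0 fell. Anxa1 lost its call without wild-type replicate 3 or knockout replicate 2 or 3 (adjusted p of 0.052 to 0.060). Of 7 further oxidase and kinase genes, Cyba (0.45), Plcg2 (0.30) and Ncf1 (0.25) rose (42.9%, beside 9.66% of all genes) and 0 fell. Cyba is the partner of Cybb in the oxidase membrane core, and Ncf1 binds the same complex as Ncf4, so 2 oxidase subunits rose, 1 fell and Cybb did not pass. Of 13 further mast cell and basophil genes, 0 passed in limma, beside 19.8% of all genes, and 1 had an unadjusted p under 0.05, beside 30.6%. The smallest p values were those of the cytokine gene Il4 (difference 0.10; limma adjusted p = 0.15) and the prostaglandin synthase gene Hpgds (0.069; 0.33). The mast cell proteases Mcpt1 and Mcpt2, relatives of Mcpt8, differed by 0.16 and 0.041 and did not pass; without knockout replicate 3, Mcpt2 differed by 0.20 and passed (adjusted p = 0.033).

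**Figure D4:**
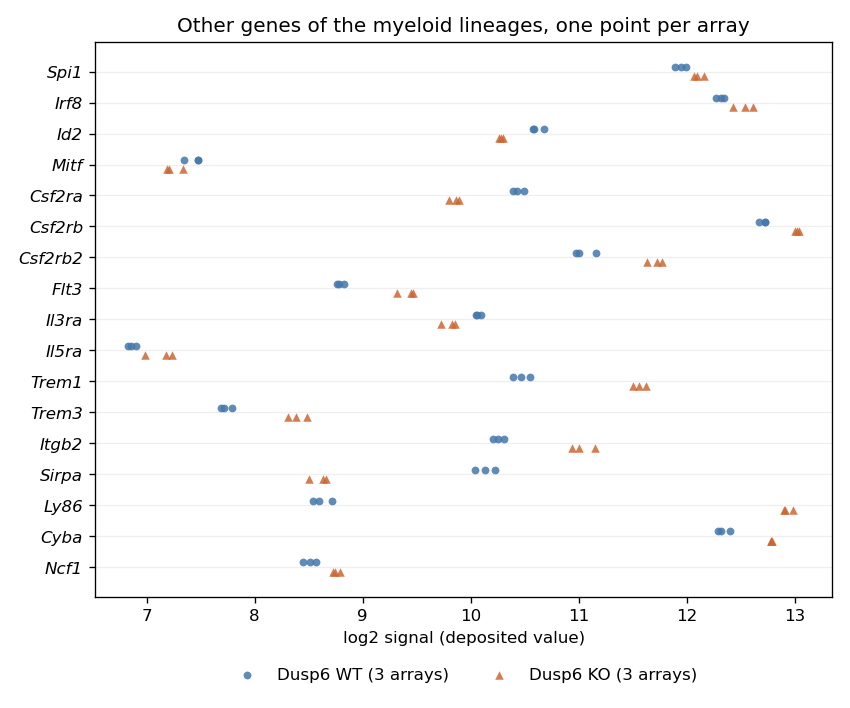
Log2 signal on each array of 17 genes of the myeloid lineages outside the 35, with circles for Dusp6 WT and triangles for Dusp6 KO. Triangles lie to the right for Ly86, Trem1 and Csf2rb2 and to the left for Sirpa and Csf2ra; positions of different genes are not comparable RNA levels.

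Markers of other cell types were read beside these results. Among 20 T and NK cell genes 3 rose (Cd2, Klrd1 and Cd5) and 2 fell (Lat and Zap70). These are 15% and 10%, beside 9.66% and 10.2% of all genes. Among 11 erythroid and megakaryocyte genes 1 rose (Car1), among 11 dendritic cell genes 1 (Ly6d), and among 15 stromal genes 2 (Serpinf1 and Fn1), with 0 lower in these 3 lists. The shares that rose were 9.09%, 9.09% and 13.3%, near the 9.66% of all genes. Zap70 was called without knockout replicate 1 but not without any other single array (adjusted p up to 0.15), and Car1 was called without knockout replicate 3 but not without any other (up to 0.11). Fn1 was not called without wild-type replicate 1 (0.071), knockout replicate 1 (0.060) or knockout replicate 2 (0.071). Mean log2 signals of the T and NK list were 7.69 to 7.71 in wild type and 7.77 to 7.83 in knockout, those of the dendritic list 8.25 to 8.27 and 8.29 to 8.38, and those of the stromal list 7.957 to 8.003 and 8.044 to 8.076. Those of the erythroid list overlapped (8.22 to 8.27 in both genotypes). By the median deviation of genes from their wild-type means, the genotypes overlapped in the dendritic and stromal lists, but not in the T and NK list. For the dendritic and stromal lists, knockout replicate 2 read −0.023 and 0.0023, and wild-type replicate 1 read 0.0048 and 0.0063. Of the 19 B cell precursor genes, 3 rose (Rag1, Cd93 and Bst1) and 6 fell. These are 15.8% and 31.6%, beside 9.66% and 10.2% of all genes. The genes that fell included Dntt at −1.42, Rag2 at −0.43, Il7r at −0.31 and Vpreb1 at −0.27. Vpreb1 lost its call without knockout replicate 2 or 3 (adjusted p = 0.061 and 0.055), and Rag1 without wild-type replicate 1 or 3 or knockout replicate 2 or 3 (0.052 to 0.094). The mean of that list was 12.73 to 12.74 in wild type and 12.59 to 12.60 in knockout. The part of these differences in the changes of Fcgr3, Lyz2 and Fcgr4 was not tested.

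**Figure D5:**
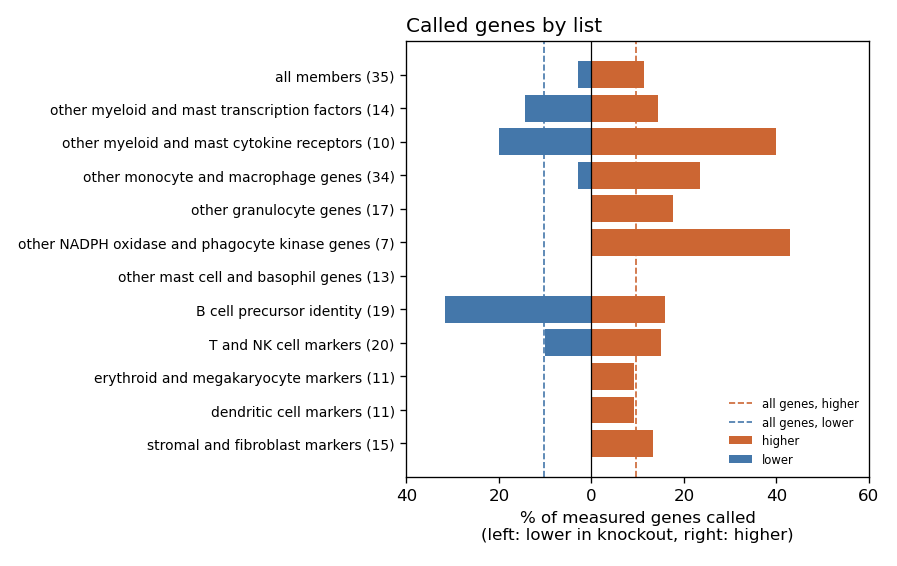
Share of the measured genes of each list (number in brackets) called higher (right) or lower (left) in knockout at a limma adjusted p under 0.05; dashed lines mark the shares over all genes, 9.66% and 10.2%. The 35 members lie near the line for higher calls and below the line for lower calls, and the further mast cell and basophil list has no call.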

How the data were processed

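Total RNA of 6 samples was hybridised to Affymetrix arrays. The deposited values are log2 signals, 1 per probe set and array. RMA, which corrects background, equalises arrays and summarises probes, and the Partek software (6.5) are named in the submitters' processing notes; settings and genome build: not given in the sources used here. Values ran from 3.23 to 14.8, which is how the log2 scale was recognised. The number of arrays limits the precision.

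Of 35556 probe sets, 21789 carried 1 symbol in the platform annotation, 1621 several and 12146 none. Each gene was read by its brightest single-symbol probe set. Knockout was compared with wild type in limma 3.58.1 (R 4.3.3) over 19938 genes and 6 arrays, with Benjamini-Hochberg adjustment and calls at an adjusted p under 0.05. The procedure was tested on simulated data. The members and lists were chosen with earlier results of these data known. Named genes are all members, from each other list at most 4 called genes ranked by size of difference (2 ranked by p where none was called), near copies and Dusp6. Il3ra, Il5ra, Rag1, Cd93, Bst1, Zap70, Lgals3, Tnf, Cd36, Ctss, Cd86, genes named as not passing in other lists, neighbours of Fcgr3 and the motifs were chosen after values were seen. Some symbols of the lists are not reported here.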

Additional observations from a re-analysis of the deposited data

How the results depend on the processing

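Over 15 alternatives, Fcgr3 (1.61 to 1.79) and Lyz2 (0.64 to 0.74) kept their direction and call, and Fcgr4 (0.50 to 0.60) did in the 13 that tested it. Leaving out 1 array at a time gave 3 to 4 members higher and 0 to 2 lower. With arrays centred on their median, with trend and robust options, and without genes below the 25th percentile of signal, 2 members were lower. Without genes below the median signal, where 6 members were left, 2 were higher and 2 lower and the members' median was −0.015. Of the 9969 genes left in that setting, 1769 were higher and 2206 lower. The extra lower member was Cd68, and Fcgr1 passed without genes below the 25th percentile (adjusted p = 0.033). No pairing of arrays by replicate number was seen: deviations of same-numbered arrays correlated at 0.0098, −0.12 and 0.053. Those of differently numbered arrays correlated at −0.15 to 0.13, and not every array correlated best with its own number. With 3 arrays a group, this check cannot exclude a pairing. The replicate block left 3 members higher and 1 lower, and 1681 genes higher and 1764 lower. Of 95 named genes, 75 kept their call, or stayed without one, in every setting, and 0 called genes reversed. The 75 include genes without a call whose difference changed sign between settings, such as Csf1r (−0.010 to 0.032) and Mpo (−0.023 to 0.062). With every probe set in the adjustment, Msr1, Spi1, Irf8, Mitf, Il5ra, Fcrla, Dusp12, Sdhc, Rag1, Vpreb1, Zap70, Car1, Cd86 and Fn1 were not called. With 3 arrays a group, an exact permutation test cannot go below 0.10. Signal over background was not measured, which limits the dim members.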
